A study of Mus musculus with 9 samples.

Results

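The 10 genes described here encode oxygen-regulated subunits of the hypoxia-inducible factors (HIFs) and 8 HIF targets outside glycolysis. The subunit genes are Hif1a and Epas1, and the targets are Egln1, Egln3, Bnip3, Pdk1, Adm, Ndrg1, P4ha1 and Ak4. They were taken by symbol from a table of 18303 genes, and all 10 were found in it and passed the filter on low counts. Their RNA was measured in macrophages sorted from skin wounds of wild-type C57BL/6J mice, in 5 libraries from day 14 and 4 libraries from day 4 after injury. No treatment, transgene or deletion is named for either day. The sort took live cells positive for CD45, CD11b and F4/80. The labels do not say whether each library is a different animal, so p-values here set the difference between days against a spread that may be partly technical.

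HIFs are dimers of an oxygen-labile alpha subunit, such as HIF-1 alpha (Hif1a) or HIF-2 alpha (Epas1), with the stable partner Arnt. When oxygen is present, prolyl hydroxylases of the Egln family mark the alpha subunit for destruction through the VHL ubiquitin ligase, so alpha protein is set mainly after transcription and the RNA measured here does not report it. When oxygen is short, the dimer binds a short core sequence, A or G followed by CGTG, near genes for energy metabolism, mitophagy, vessel growth and matrix assembly, and it induces Egln3 and Egln1 themselves as feedback. In wounds, macrophages work in poorly perfused tissue early in repair, and the alpha subunits are also induced in them by inflammatory signals.

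Promoter sequences are shown for the subunit gene Hif1a and for 3 of the targets with large differences, because they show how differently the HIF core is placed in genes that moved the same way. Each line gives the 250 bases before a transcription start in the RefSeq table for GRCm38.p6, 5′ to 3′ on the strand of the gene. Capitals mark ACGTG or GCGTG on either strand, with overlapping matches merged, so CACGTG is 1 site read on both strands.
Hif1a, chr12:73907617-73907866, plus strand: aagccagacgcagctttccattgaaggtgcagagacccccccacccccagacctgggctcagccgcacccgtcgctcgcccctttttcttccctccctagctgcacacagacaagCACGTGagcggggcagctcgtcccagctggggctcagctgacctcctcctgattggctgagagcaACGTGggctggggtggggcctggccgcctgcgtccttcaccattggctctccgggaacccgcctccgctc
Egln3, chr12:54203875-54204124, minus strand: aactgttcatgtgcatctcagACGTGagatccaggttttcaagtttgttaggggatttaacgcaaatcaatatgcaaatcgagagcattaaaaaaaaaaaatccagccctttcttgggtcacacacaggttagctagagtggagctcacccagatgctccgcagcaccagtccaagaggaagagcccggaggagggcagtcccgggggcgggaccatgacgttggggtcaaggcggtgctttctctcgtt
Bnip3, chr7:138909507-138909756, minus strand: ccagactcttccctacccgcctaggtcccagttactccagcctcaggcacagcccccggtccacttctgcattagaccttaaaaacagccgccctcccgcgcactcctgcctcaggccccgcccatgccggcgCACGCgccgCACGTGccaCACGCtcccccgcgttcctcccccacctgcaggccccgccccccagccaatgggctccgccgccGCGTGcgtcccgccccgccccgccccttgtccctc
Pdk1, chr2:71872974-71873223, plus strand: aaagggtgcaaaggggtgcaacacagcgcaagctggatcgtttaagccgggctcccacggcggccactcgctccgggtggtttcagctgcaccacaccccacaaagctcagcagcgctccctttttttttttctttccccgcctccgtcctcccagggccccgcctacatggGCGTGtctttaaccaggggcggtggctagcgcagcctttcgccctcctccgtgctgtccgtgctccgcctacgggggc
The Bnip3 window holds 4 such sites, Hif1a holds 2, and Egln3 and Pdk1 hold 1 each. The start given for Hif1a lies inside the annotated gene, downstream of its 5′ end. Of the 10 genes, 8 had a start in the table, and each of the 8 held the core at 1 start or more, with 3 sites in P4ha1 and 2 in Egln1 and Adm. Ak4 held 2 sites at 3 of its 4 starts and 1 at the other, and a second Pdk1 start held 0. Among all 32851 starts in the table, 38.6% held ACGTG or GCGTG within the same distance, 13.5% held at least 2 sites and 1.49% held at least 4. These are shares of single starts not matched for base composition, while the 8 genes are counted with a match at any start. The counts of genes and of starts are therefore not in the same unit. Such a match is a description of letters and not of binding.

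At day 14, 8 of the 10 genes were lower than at day 4 and none was higher, by edgeR's quasi-likelihood test with a Benjamini-Hochberg adjusted p under 0.05 over all 13363 genes tested. Of all genes tested, 12.7% were called lower and 12.8% higher. DESeq2 and limma-voom also called 8 of the 10 lower and 0 higher, and none of the 10 was higher at an unadjusted p under 0.05. The same 8 genes had no overlap between the days, a pattern shown by 12.8% of all genes tested in the lower direction. The median log2 fold change of the 10 genes was -1.05, beside -0.01 over all genes tested and -0.64 over the 1694 genes called lower. Egln3, Ak4, Bnip3, Pdk1 and Adm were more than 2-fold lower, a size that 3.84% of all genes tested reached with a call. Hif1a, P4ha1 and Egln1 were lower by less, and Epas1 and Ndrg1 did not pass. Ranked by fold among the 1694 genes called lower, Egln3 stood at 47, Ak4 at 87, Bnip3 at 122 and Pdk1 at 226, while Egln1 stood at 826. Levels are given in CPM, the count of a gene scaled for the size of its library and by TMM factors, which correct for differences in composition.

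**Figure D1:**
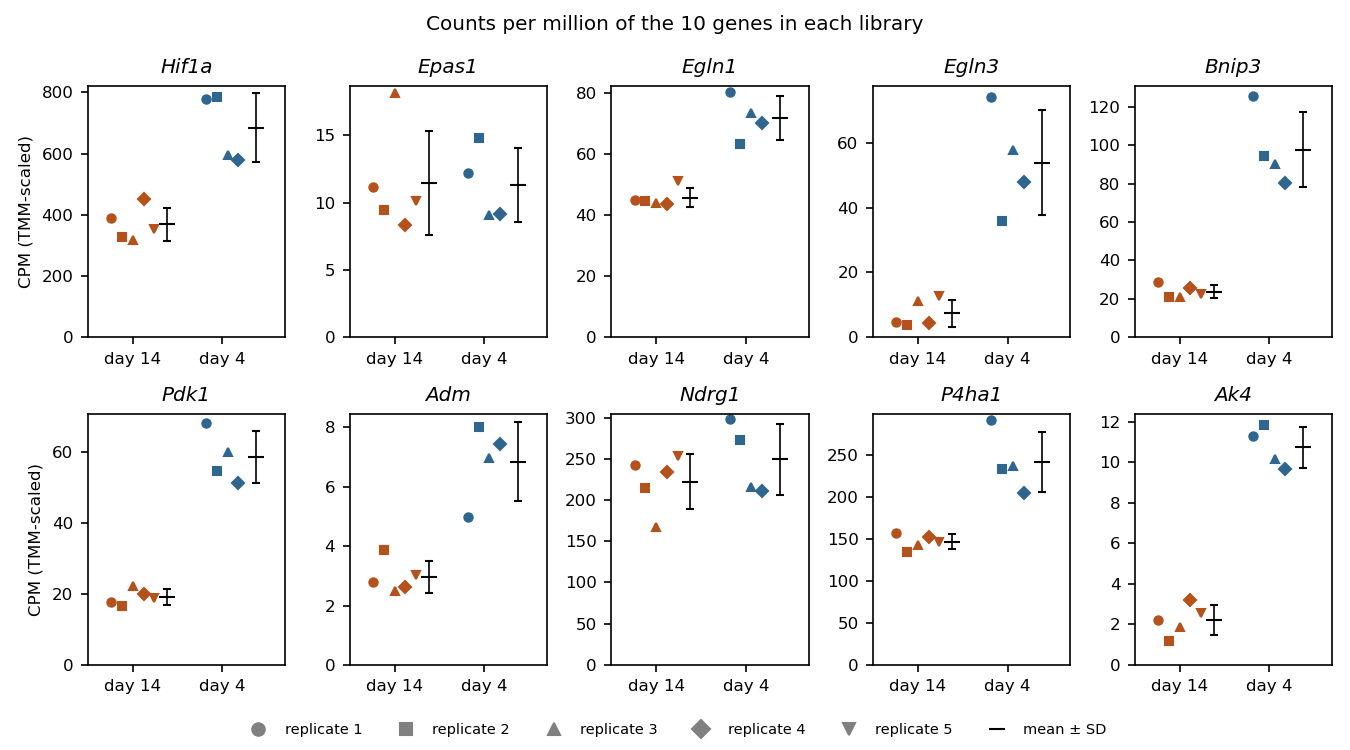
TMM-scaled CPM (vertical axis from 0) of each of the 10 genes in each library, day 14 left of day 4; each point is a library, its shape gives the replicate, and bars show the mean ± SD of 5 and 4 libraries. In 8 panels all day 14 points lie below all day 4 points, and in the Epas1 and Ndrg1 panels the days overlap.

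Libraries held 17982633 to 50445171 counts at day 14 and 26479017 to 57809918 at day 4, with 14537 to 16233 genes counted in each. Libraries of 1 day differed by more than counting noise in all 16 pairs (chi-square 9.81 to 114 per degree of freedom). The counts of day 14 replicate 5 stop within Aplp2 on chromosome 9, so that 807 of 810 well-counted genes beyond that point are at 0 in this library. None of the 10 genes lies beyond it, and values of other genes that do come from the 8 other libraries, where 28.6% of 13287 genes were called, 14.8% higher and 13.8% lower. The genes of the sort markers and other macrophage genes were abundant at both days: 9 of them summed to 18878 to 20494 CPM in day 14 libraries and 17879 to 21286 CPM in day 4 libraries. Fibroblast transcripts were abundant in a sort for CD45: 14 markers summed to 5509 to 9002 CPM at day 14 and 10104 to 20111 CPM at day 4, and 8 of the 14, among them Col1a1 and Col3a1, were lower at day 14. Of the tested markers of other cells, 5 of 7 for dendritic cells, 4 of 5 for keratinocytes and 3 of 3 for eosinophils were higher at day 14. The keratinocyte markers summed to 5.35 to 11.1 CPM at day 14 and 0.849 to 5.23 CPM at day 4. Epx, also on the eosinophil list, averaged 0.0185 CPM at day 14 and 0.0146 CPM at day 4 and was not tested. Of 5 mast cell markers, 2 were higher and 1 was lower, and Cd2, the only T cell marker tested, was higher. The part of these cells in the results was not tested. In bulk RNA, fewer cells of a type and less RNA per cell cannot be told apart, for these genes and for all that follow.

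Hif1a (chromosome 12, 73901375 to 73947530, GRCm38) was expressed at 391, 328, 317, 452 and 354 CPM in day 14 replicates 1 to 5, against 777, 786, 595 and 580 CPM in day 4 replicates 1 to 4. The lowest day 4 library was above the highest day 14 library. Hif1a averaged 368 ± 54.4 CPM at day 14 and 685 ± 112 CPM at day 4 (SD, n = 5 and 4), 1.86-fold lower at day 14 (log2 fold change -0.89 ± 0.14 SE, 95% interval -1.20 to -0.59, adjusted p = 0.00127 by edgeR). Within day 4, both shallower libraries (mean 782 CPM) were above both deeper ones (587 CPM), an order also held by Epas1, Bnip3, Ndrg1 and Ak4 and by 25.6% of all genes tested. Among the 6 shallower libraries alone, the log2 fold change of Hif1a was -1.12 (adjusted p = 0.00631 by edgeR). With the mean level of the fibroblast markers as a covariate it was -0.82 and no longer passed (SE 0.23, adjusted p = 0.0681 by edgeR). This mean level was at most 7.13 (log2 CPM) at day 14 and at least 7.16 at day 4. The fit therefore cannot separate the fibroblast markers from the day, for Hif1a or for any gene below.

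Epas1 (chromosome 17, 86753700 to 86833410) was expressed at 11.2, 9.43, 18.1, 8.29 and 10.1 CPM at day 14, against 12.2, 14.8, 9.07 and 9.17 CPM at day 4. The days overlapped throughout, with the highest and the lowest value both at day 14. Its means were 11.4 ± 3.89 CPM at day 14 and 11.3 ± 2.74 CPM at day 4, and its log2 fold change of 0.02 (95% interval -0.51 to 0.55, adjusted p = 0.969 by edgeR) leaves room for a change of either sign. Day 14 replicate 3, the library with 18.1 CPM, also had the highest sum of 7 endothelial markers, 49.2 CPM against 17.7 to 30.0 CPM in the 4 other day 14 libraries and 20.2 to 28.3 CPM at day 4; Epas1 is strongly expressed in endothelium, and the part of such cells in its level was not tested. Over the whole endothelial list, 3 of 8 markers, Tek, Emcn and Cldn5, were higher at day 14 and none was lower. Without that library the log2 fold change of Epas1 was -0.23 (adjusted p = 0.368 by edgeR).

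Because Hif1a was lower and Epas1 was not called, the balance between the subunits was compared within each library, where scaling between libraries plays no part. With Epas1 at a log2 fold change of 0.02, this ratio mostly restates the lower Hif1a and is not separate evidence. The ratio of Epas1 to Hif1a counts was 0.0286, 0.0287, 0.0572, 0.0184 and 0.0286 at day 14, against 0.0157, 0.0188, 0.0153 and 0.0158 at day 4. Of the 5 day 14 libraries, 4 were above all day 4 libraries, and replicate 4 fell among them. The mean ratio was 0.0323 ± 0.0146 at day 14 and 0.0164 ± 0.00163 at day 4, 1.84-fold higher at day 14 by the mean log2 ratio (difference 0.88; two-sided exact permutation test, p = 0.0238, adjusted over 4 pairs 0.0238). The difference was 0.65 without day 14 replicate 3. Without day 14 replicate 4 it passed (1.06, adjusted p = 0.0286 in the exact permutation test), and with any of the 8 other libraries left out its adjusted p lay between 0.0571 and 0.0893 in the same exact test. Among the other oxygen-sensing genes, Arnt was at 104 ± 8.08 CPM at day 14 against 113 ± 3.35 CPM at day 4, and did not pass (adjusted p = 0.291 by edgeR). Hif3a, the gene of a further alpha subunit, was at 1.41 ± 0.306 CPM at day 14 against 0.445 ± 0.391 CPM at day 4. It did not pass either (adjusted p = 0.0656 by edgeR).

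Egln1, the main oxygen sensor of the prolyl hydroxylase family (PHD2; chromosome 8, 124908587 to 124949324), was expressed at 45.0, 44.7, 44.0, 43.6 and 51.1 CPM at day 14, against 80.5, 63.2, 73.6 and 70.2 CPM at day 4. The day 14 libraries were close together, with replicate 5 above the 4 others and still below every day 4 library. Egln1 averaged 45.7 ± 3.10 CPM at day 14 and 71.9 ± 7.17 CPM at day 4, 1.57-fold lower at day 14 (log2 fold change -0.65 ± 0.08, adjusted p = 0.000498 by edgeR).

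Egln3, which encodes PHD3 and is the family member most strongly induced by HIF (chromosome 12, 54178981 to 54203860), was expressed at 4.75, 3.66, 11.3, 4.42 and 12.6 CPM at day 14, against 74.1, 35.9, 57.8 and 47.8 CPM at day 4. Replicates 3 and 5 were the high libraries of day 14, and every day 4 library was well above them. The means were 7.35 ± 4.25 CPM at day 14 and 53.9 ± 16.2 CPM at day 4, 7.36-fold lower at day 14, with a wide 95% interval of the log2 fold change (-2.88, -3.92 to -1.84, adjusted p = 0.00294 by edgeR). Egln3 had the largest difference of the 10 genes and the widest relative spread within day 14. Neutrophils, which also express Egln3, were followed by 6 summed markers: 356, 239, 1700, 353 and 785 CPM in day 14 replicates 1 to 5, against 1674, 609, 687 and 708 CPM in day 4 replicates 1 to 4. Replicates 3 and 5 of day 14 and replicate 1 of day 4 were high for both the markers and Egln3. Of the whole neutrophil list, 0 of 7 tested markers passed with edgeR, 1 (lower) had an unadjusted p under 0.05, and DESeq2 and limma-voom called 1 lower. With the mean level of neutrophil markers as a covariate, the log2 fold change of Egln3 was -2.45 (adjusted p = 0.00062 by edgeR). It did not pass with the fibroblast markers as a covariate (-2.50, adjusted p = 0.0771 by edgeR) or among the 6 shallower libraries (-2.79, adjusted p = 0.0728 by edgeR).

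The Egln3 to Egln1 count ratio was 0.106, 0.0819, 0.256, 0.101 and 0.247 at day 14, against 0.921, 0.568, 0.786 and 0.681 at day 4, so that all day 14 libraries were below all day 4 libraries. It was 5.16-fold lower at day 14 (exact permutation test, p = 0.00794, the smallest that 5 against 4 libraries allow, adjusted over 4 pairs 0.0106). Egln3 and Egln1 were both called lower above, so this ratio restates how their folds differ and is not separate evidence. The third hydroxylase gene, Egln2, which is not a typical hypoxia target, was at 36.0 ± 7.20 CPM at day 14 against 38.8 ± 4.64 CPM at day 4 and did not pass (adjusted p = 0.659 by edgeR). Over the list of oxygen sensing and HIF partners, 5 of 16 genes were lower, 1 was higher and 10 did not pass, with a median log2 fold change of -0.11. With the 10 genes left out, 2 of 12 were lower and 1 was higher, with a median of -0.01. Over all genes tested, 12.7% were lower and 12.8% higher. Besides Hif1a, Egln1 and Egln3, Vhl, the substrate receptor of the ligase, was 1.34-fold lower at 27.5 ± 1.27 CPM at day 14 against 36.8 ± 3.27 CPM at day 4 (adjusted p = 0.00381 by edgeR). The coactivator gene Ep300 was 1.15-fold lower (adjusted p = 0.0405 by edgeR), close to the threshold, and lost the call under 13 of the 22 alternatives in which it was followed. Hsp90ab1, a chaperone that holds HIF-1 alpha, was the gene that was higher, at 1666 ± 121 CPM at day 14 against 1280 ± 57.1 CPM at day 4 (adjusted p = 0.0064 by edgeR).

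**Figure D2:**
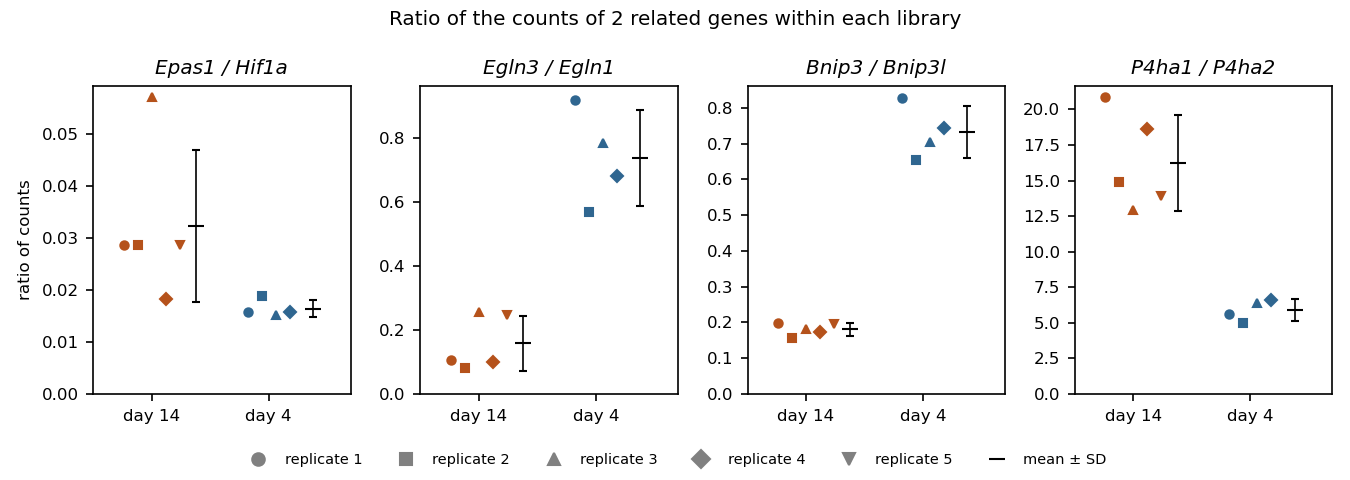
Ratio of the counts of 2 related genes in the same library (vertical axis from 0), day 14 left of day 4; points are libraries with the replicate given by shape, and bars show the mean ± SD of 5 and 4 libraries. The days are apart for Egln3/Egln1, Bnip3/Bnip3l and P4ha1/P4ha2, while Epas1/Hif1a has day 14 replicate 4 (0.0184) among the day 4 libraries.

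Bnip3, an outer mitochondrial membrane receptor for mitophagy (chromosome 7, 138890836 to 138909519), was expressed at 28.9, 20.7, 21.0, 25.5 and 22.3 CPM at day 14, against 125.7, 94.5, 90.2 and 80.6 CPM at day 4. Every day 4 library was far above every day 14 library. Bnip3 averaged 23.7 ± 3.48 CPM at day 14 and 97.7 ± 19.5 CPM at day 4, 4.12-fold lower at day 14 (log2 fold change -2.04 ± 0.15, adjusted p = 1.69e-05 by edgeR). The antisense gene Gm45507 covers 22.3% of its exon bases, and reads of both cannot be told apart because the library kit does not mark the strand. Antisense genes cover less of Hif1a (5.6% by Gm15283) and of Ndrg1 (6.35% by Gm17035).

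Its paralog Bnip3l (NIX), a mitophagy receptor also known as a HIF target, was at 131 ± 16.4 CPM at day 14 against 133 ± 19.4 CPM at day 4 and did not pass (log2 fold change -0.02, adjusted p = 0.928 by edgeR). The Bnip3 to Bnip3l count ratio was 0.198, 0.155, 0.183, 0.173 and 0.197 at day 14, against 0.828, 0.654, 0.706 and 0.745 at day 4. This ratio varied little within either day and was 4.05-fold lower at day 14 (exact permutation test, p = 0.00794, adjusted over 4 pairs 0.0106). With Bnip3l at a log2 fold change of -0.02, the ratio mostly restates the lower Bnip3 and is not separate evidence.

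Pdk1, the kinase that inhibits pyruvate dehydrogenase and so limits entry of pyruvate into the citric acid cycle (chromosome 2, 71873224 to 71903858), was expressed at 17.8, 16.5, 22.2, 20.0 and 18.9 CPM at day 14, against 68.2, 54.6, 60.0 and 51.3 CPM at day 4. The days were separate, and the spread within each was small. Its means were 19.1 ± 2.18 CPM at day 14 and 58.5 ± 7.36 CPM at day 4, with a log2 fold change of -1.62 ± 0.11 and the lowest adjusted p of the 10 genes (1.39e-05 by edgeR). Of the 7 genes for pyruvate dehydrogenase kinases and phosphatases, 2 were lower (beside 12.7% of all genes tested) and 5 did not pass. The other lower gene was Pdpr, a regulatory subunit of the phosphatase, 1.20-fold lower (adjusted p = 0.0391 by edgeR) and without the call under 13 of its 22 alternatives. The 3 other kinase genes did not pass. Pdk3 was at 27.1 ± 3.65 CPM at day 14 against 24.7 ± 2.87 CPM at day 4 over 8 libraries, Pdk2 at 6.46 ± 1.31 and 6.29 ± 1.85 CPM, and Pdk4 at 1.94 ± 0.488 and 1.14 ± 0.338 CPM.

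Ak4, a nucleoside phosphate kinase of the mitochondrial matrix (chromosome 4, 101419277 to 101466995), was expressed at 2.19, 1.19, 1.87, 3.18 and 2.54 CPM at day 14, against 11.3, 11.9, 10.2 and 9.64 CPM at day 4. It rested on 30 to 107 counts per library at day 14 and 279 to 573 at day 4. The day 4 libraries lay close together and all were above the day 14 libraries. Ak4 averaged 2.19 ± 0.741 CPM at day 14 and 10.7 ± 1.01 CPM at day 4, 4.91-fold lower at day 14 (log2 fold change -2.30 ± 0.23, adjusted p = 0.000126 by edgeR). The adenylate kinase family did not move together: of 6 tested genes, 2 were lower, 2 were higher and 2 did not pass. The shares over all genes tested were 12.7% lower and 12.8% higher. Ak1, the cytosolic form, was also lower, at 3.07 ± 0.498 CPM at day 14 against 7.66 ± 1.54 CPM at day 4. Ak3, another matrix enzyme, was higher, at 64.3 ± 3.15 CPM at day 14 against 45.8 ± 3.78 CPM at day 4 (adjusted p = 0.00137 by edgeR), as was Ak8 at 8.69 ± 1.27 CPM at day 14 against 3.69 ± 0.812 CPM at day 4 (adjusted p = 0.00103 by edgeR).

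Over the list of HIF targets in mitochondria and autophagy, 7 of 9 tested genes were lower and none was higher, also at an unadjusted p under 0.05 and with DESeq2 and limma-voom (median log2 fold change -1.30). Among all genes tested, 12.7% were lower. Outside the 10 genes, 4 of 6 tested genes were lower: Fam162a, Ndufa4l2, Lonp1 and Mxi1. Lonp1 was 1.15-fold lower, close to the threshold (adjusted p = 0.0478 by edgeR), and was not followed under the alternatives. Mxi1, a Myc antagonist and the most abundant of the 4, was at 120 ± 13.4 CPM at day 14 against 225 ± 44.8 CPM at day 4.

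Adm encodes adrenomedullin, a secreted peptide that widens vessels and protects endothelium (chromosome 7, 110627661 to 110629820). It was expressed at 2.81, 3.86, 2.49, 2.63 and 3.04 CPM at day 14, against 4.97, 8.01, 6.97 and 7.45 CPM at day 4, from 53 to 137 counts per library at day 14 and 123 to 443 at day 4. The lowest day 4 library, replicate 1, was nearest to the day 14 libraries without reaching them. Adm averaged 2.97 ± 0.539 CPM at day 14 and 6.85 ± 1.32 CPM at day 4, 2.31-fold lower at day 14 (log2 fold change -1.21 ± 0.18, adjusted p = 0.00118 by edgeR). It missed the threshold with the fibroblast markers as a covariate (-1.10, adjusted p = 0.0594 by edgeR) and among the 6 shallower libraries (-1.12, adjusted p = 0.0502 by edgeR).

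Adrenomedullin acts on the receptor Calcrl when it is paired with a Ramp protein, chiefly Ramp2 or Ramp3, and is bound by the scavenging receptor Ackr3. Of the 5 genes of this group, 1 was lower, 1 was higher and 3 did not pass. The shares over all genes tested were 12.7% lower and 12.8% higher. Ackr3 was 4.24-fold lower, at 13.9 ± 2.00 CPM at day 14 against 59.0 ± 7.11 CPM at day 4 (adjusted p = 6.92e-06 by edgeR). Ramp1 was 2.40-fold higher, at 13.4 ± 1.21 CPM at day 14 against 5.57 ± 0.489 CPM at day 4 (adjusted p = 4.75e-05 by edgeR). Calcrl itself was at 45.9 ± 6.19 CPM at day 14 against 35.5 ± 6.25 CPM at day 4 and did not pass (adjusted p = 0.0669 by edgeR).

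Ndrg1, a cytoplasmic stress-response gene induced by hypoxia in many cell types (chromosome 15, 66929318 to 66969640), was expressed at 242, 214, 168, 234 and 254 CPM at day 14, against 298, 273, 216 and 211 CPM at day 4. Both deeper day 4 libraries fell inside the day 14 range. Ndrg1 averaged 222 ± 33.8 CPM at day 14 and 249 ± 42.8 CPM at day 4, and its log2 fold change of -0.17 (95% interval -0.49 to 0.15) did not pass (adjusted p = 0.436 by edgeR). That interval excludes a 2-fold difference in either direction, and so does the one of Epas1. In its family, Ndrg4 was lower (5.48 ± 0.968 CPM at day 14 and 9.91 ± 2.05 CPM at day 4, adjusted p = 0.00699 by edgeR) and Ndrg3 was 1.34-fold higher (40.6 ± 4.9953 CPM at day 14 and 30.3 ± 1.87 CPM at day 4, adjusted p = 0.0108 by edgeR).

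Over the list of secreted signals and stress targets to which Adm and Ndrg1 belong, 9 of 15 tested genes were lower, 1 was higher and 5 did not pass, and the median log2 fold change was -0.60. Among all genes tested, 12.7% were lower and 12.8% higher. Vegfa, a growth factor for blood vessels, was 2.39-fold lower, at 310 ± 45.7 CPM at day 14 against 741 ± 116 CPM at day 4 (adjusted p = 0.000149 by edgeR). Ddit4, an inhibitor of mTORC1, was 4.46-fold lower, at 30.6 ± 7.38 CPM at day 14 against 136 ± 18.3 CPM at day 4. Hmox1, the haem-degrading enzyme, was the most abundant of the list, at 1018 ± 175 CPM at day 14 against 2182 ± 259 CPM at day 4. Bhlhe41, a transcriptional repressor, was the gene that was higher, at 37.5 ± 8.98 CPM at day 14 against 14.8 ± 1.54 CPM at day 4 (adjusted p = 0.000533 by edgeR). Of the 10 chromatin and feedback targets, 5 were lower and none was higher by any of the 3 tools or at an unadjusted p under 0.05. Besides Egln1 and Egln3, which are among the 10 genes, 3 of 8 were lower. These were Hilpda, a lipid droplet protein, Ankrd37 and Jmjd6, of which Jmjd6 lost the call under 7 of its 22 alternatives.

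P4ha1, the catalytic subunit of the collagen prolyl hydroxylase of the endoplasmic reticulum (chromosome 10, 59323296 to 59373304), was expressed at 157, 134, 143, 152 and 146 CPM at day 14, against 291, 233, 237 and 205 CPM at day 4. The day 14 libraries differed little from each other and all lay below the day 4 libraries. P4ha1 averaged 147 ± 8.66 CPM at day 14 and 242 ± 36.0 CPM at day 4, 1.65-fold lower at day 14 (log2 fold change -0.72 ± 0.10, adjusted p = 0.000822 by edgeR). Collagen modification is above all a fibroblast task. Of the 14 fibroblast markers, 8 were lower at day 14, 0 were higher and 6, among them Dcn, Lum and Postn, did not pass. Within day 4, replicate 2 had the highest fibroblast marker sum (20111 CPM) and P4ha1 was highest in replicate 1 (marker sum 12009 CPM). Replicate 4 was lowest for both, at 10104 CPM for the markers and 205 CPM for P4ha1. With the fibroblast markers as a covariate the log2 fold change of P4ha1 was -0.76 (adjusted p = 0.0321 by edgeR), in a fit that cannot separate these markers from the day.

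All 8 genes of the collagen modification list were lower at day 14, with a median log2 fold change of -1.72 and none higher by any of the 3 tools or at an unadjusted p under 0.05. Among all genes tested, 12.7% were lower. P4ha2, the alternative catalytic subunit, was 4.49-fold lower (9.26 ± 1.52 CPM at day 14 and 41.6 ± 9.44 CPM at day 4), and P4hb, the shared beta subunit, 1.62-fold lower (510 ± 50.8 CPM at day 14 and 824 ± 85.9 CPM at day 4). The P4ha1 to P4ha2 count ratio was 20.9, 14.9, 12.9, 18.6 and 13.9 at day 14, against 5.61, 5.002, 6.39 and 6.63 at day 4, with no overlap. It was 2.72-fold higher at day 14 (exact permutation test, p = 0.00794, adjusted over 4 pairs 0.0106). Both genes were lower, P4ha2 by more, and the ratio restates this and is not separate evidence. Ero1l, which reoxidises protein disulfide isomerase, was 3.22-fold lower and Plod2, a lysyl hydroxylase, 4.76-fold lower over 8 libraries. P4ha2, P4hb and Ero1l kept their calls under all 22 alternatives. The fit with the fibroblast markers is among these, but it cannot separate the markers from the day. The part of fibroblast RNA in these levels was not tested beyond that fit.

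**Figure D3:**
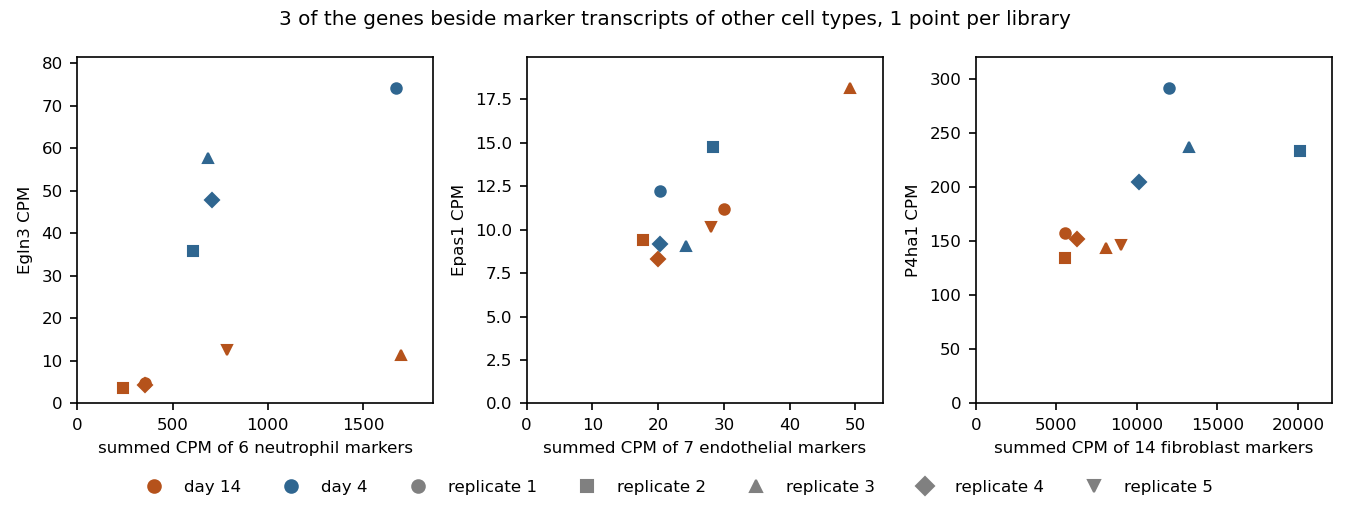
CPM of Egln3, Epas1 and P4ha1 (vertical axes from 0) against the summed CPM of neutrophil, endothelial and fibroblast markers in the same library (horizontal axes from 0); each point is a library, colour gives the day and shape the replicate. Egln3 and P4ha1 are lower in all day 14 libraries than in any day 4 library, and the highest Epas1 point is the library with the highest endothelial sum.

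Levels of different genes were compared as CPM per kilobase of exon. Hif1a was the highest of the 10 genes at both days, at 62.5 ± 9.23 at day 14 and 116 ± 19.05 at day 4. P4ha1 (35.6 ± 2.11) and Ndrg1 (33.7 ± 5.12) came next at day 14 and did not differ beyond their spread, followed by Egln1 (12.7 ± 0.861) and Bnip3 (10.5 ± 1.53), whose spreads also met. Egln3, Pdk1, Epas1 and Adm lay together at day 14, between 2.76 ± 1.60 and 1.83 ± 0.333 CPM per kilobase, and Ak4 was lowest at 0.472 ± 0.159. At day 4 the order differed: Bnip3 (43.1 ± 8.61) stood between P4ha1 (58.7 ± 8.76) and Ndrg1 (37.8 ± 6.49) with no gap beyond the spread, and Egln3 (20.2 ± 6.07) stood level with Egln1 (20.0 ± 1.99). Pdk1 (7.52 ± 0.946), Adm (4.23 ± 0.817) and then Ak4 (2.31 ± 0.217) followed, with Epas1 at the bottom (2.02 ± 0.489) and not apart from Ak4.

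Outside the 10 genes, the lists of HIF pathway, target and family genes held 65 tested genes, of which 28 were lower, 6 were higher and 31 did not pass. Of the 59 that do not lie beyond the break in day 14 replicate 5, 26 were lower and 6 were higher. Over all genes tested the shares were 12.7% lower and 12.8% higher, and 13.8% and 14.8% in the fit of 8 libraries. Of 18 glycolytic HIF targets kept for comparison, 11 were lower, 0 were higher and 7 did not pass, with a median log2 fold change of -1.12 beside the -1.05 of the 10 genes. No glycolytic gene was higher at an unadjusted p under 0.05 or with DESeq2 and limma-voom. Tpi1 (2.58-fold lower), Pgam1 (2.51-fold lower) and Gapdh (2.15-fold lower) had the lowest p-values among them.

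**Figure D4:**
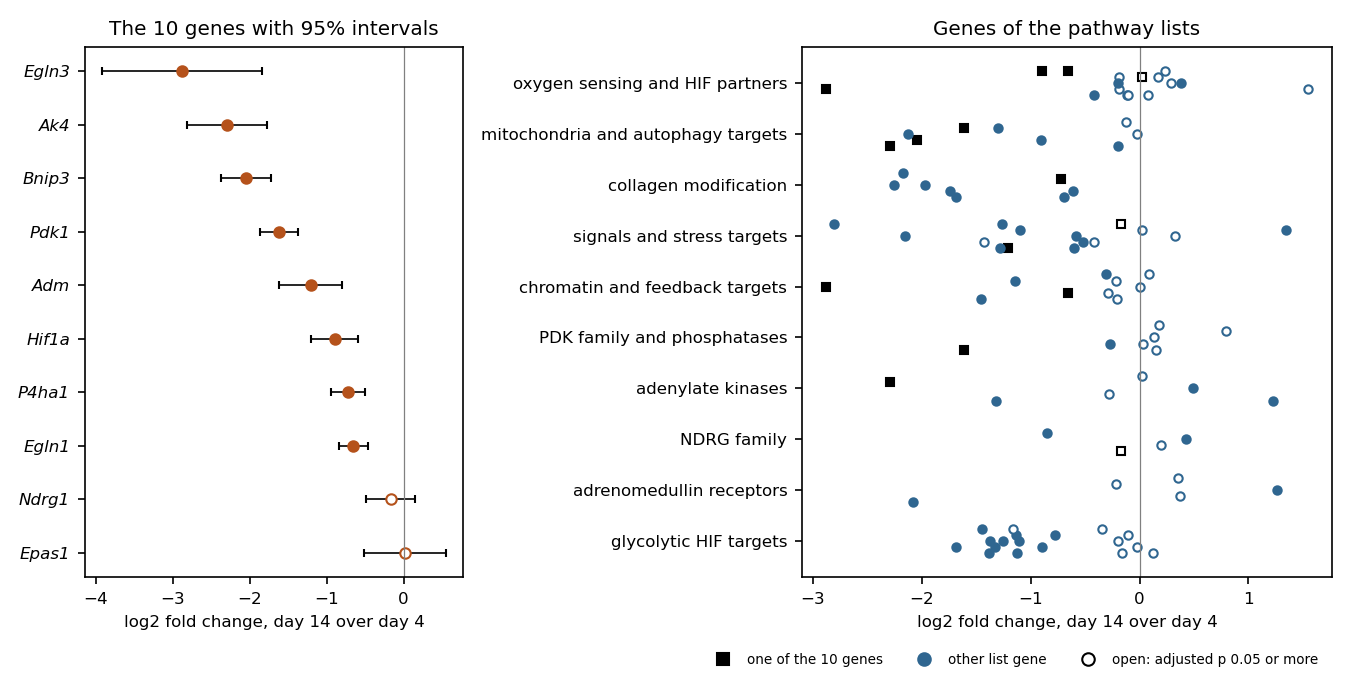
Log2 fold changes of day 14 over day 4 (horizontal axes): on the left the 10 genes with 95% intervals, on the right every tested gene of each list, with squares for the 10 genes and circles for others. Filled symbols have an adjusted p under 0.05; all filled squares lie below 0, and all filled circles of the collagen modification, mitochondrial, chromatin and glycolytic lists do too.

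The genes whose levels ran most like those of 3 of the 10 were sought by Pearson's r of log2 CPM over the 9 libraries, among 9276 genes. For Hif1a they were Dusp4 (r = 0.987), Sec23ip (r = 0.985) and B4galt1 (r = 0.980), all 3 lower at day 14. Bnip3 was most like Scarb2 (r = 0.997), Fuca2 (r = 0.996) and Glg1 (r = 0.992), also lower at day 14 but by a log2 fold change of -0.56 at most. Epas1 was most like Hexim1 (r = 0.943), Nuak2 (r = 0.923) and Zeb1 (r = 0.902), none of which passed the test between days. For Hif1a and Bnip3 the difference between the days makes up most of each correlation, and the genes share libraries and depth, so these are descriptions.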

How the data were processed

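RNA-seq was run on sorted wound macrophages, 5 libraries of day 14 and 4 of day 4. The authors deposited estimated counts per gene, not normalized, of which 15.0% to 19.3% per library were not whole; they were rounded to whole numbers. The build was mm10 and the tools were HISAT2 2.1.0, Partek 6.6, SAMtools 1.4, DESeq2 and CASAVA 1.8, per the submitters' processing notes; the role of each tool, the counter, the annotation and the filters are not given in the sources used here. Per the labels' protocols the TruSeq v2 kit was used, which does not mark strand. The authors' table of normalized values was not used.

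Counts were scaled with TMM, filtered with filterByExpr and tested with edgeR 4.0.16 (R 4.3.3; two-sided glmQLFTest after a robust glmQLFit); p-values were adjusted by Benjamini-Hochberg over 13363 genes, with a threshold of 0.05. CPM is TMM-scaled. Standard errors came from the F statistic, and 95% intervals from the moderated degrees of freedom. The script was tested on simulated data. The 1503 genes beyond Aplp2, in the order in which chromosome 10 follows chromosome 1, were read from a fit of the 8 other libraries; positions were matched through RefSeq for 17103 genes by symbol and 1098 by an older name. Exon lengths and gene coordinates came from GENCODE vM21 on GRCm38, the assembly that mm10 names. Count ratios within libraries were compared by exact permutation. Each pair holds genes chosen with earlier results known, and the adjustment over 4 pairs does not allow for this.

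The 10 genes, the lists and the alternatives were chosen with earlier results of these data known. Named list genes are those passing in a direction where 5 or fewer passed, otherwise the most abundant one and the 3 lowest in p. Arnt, Hif3a, Egln2, Bnip3l, Pdk2, Pdk3, Pdk4, Calcrl, Ramp2, Ramp3, Fam162a, Ndufa4l2 and Lonp1 were added after their values were seen. Alternatives were scaling by upper quartile, by RLE or by totals alone, DESeq2 1.42.0, limma-voom (limma 3.58.1), other filters, non-robust dispersion, covariates (log10 library size, fibroblast or neutrophil markers), the genes beyond Aplp2 left out, the 6 libraries under 3e+07 counts, each library left out, and 0.5 added to both counts of a ratio.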

Additional observations from a re-analysis of the deposited data

Results flagged for a closer look

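In 28 groups of 4 or 5 libraries, the highest and the lowest value were compared with the nearest other value, and 3 stood far from the rest. Chance marks about 1 in 20 groups. The first was Egln1 at day 14, where replicate 5 had 51.1 CPM and the 4 others 43.6 to 45.0 CPM. Another was the Epas1 to Hif1a count ratio at day 14, where replicate 3 had 0.0572 and the 4 others 0.0184 to 0.0287. The last was the same ratio at day 4, where replicate 2 had 0.0188 and the 3 others 0.0153 to 0.0158.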

How the results depend on the processing

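Of 813 values of 37 genes over 22 alternatives, 759 kept their direction and their side of the threshold. Only Epas1, which did not pass in any of them, changed sign: its log2 fold change, 0.02 with all libraries, was -0.0018 with no filter on low counts, -0.24 in the 6 shallower libraries and -0.077 with log10 library size as a covariate, and lay between -0.23 and 0.16 with 1 library left out (negative without day 14 replicate 3, at -0.23, and without day 4 replicate 3 or 4, at -0.09 each); the cause was not tested. The count of the 10 genes called lower was 8 with any 1 library left out. It was 6 in the 6 shallower libraries, where Egln3 and Adm did not pass, and 7 of 9 tested with the filter of 5 CPM in 4 libraries. With the fibroblast markers as a covariate it was 5 (Hif1a, Egln3 and Adm did not pass). This fit gave 454 genes higher and 367 lower among all genes, and 3 higher and 15 lower among the other list genes. It cannot separate the markers, whose mean level was lower in every day 14 library than in any day 4 library, from the day. The 6 shallower libraries gave 668 genes higher and 666 lower. Upper-quartile scaling, which moved the median of all genes by 0.06 (log2), gave 1089 lower. With 1 library left out, 1235 to 1967 genes were higher and 1160 to 2116 lower, and 0 to 1 glycolytic gene was higher. The log2 difference in the Epas1 to Hif1a ratio lay between 0.65 and 1.06 with 1 library left out and passed only without day 14 replicate 4. Among the 6 shallower libraries it was 0.83, and the differences were -2.26 for Egln3/Egln1, -2.06 for Bnip3/Bnip3l and 1.4965 for P4ha1/P4ha2; none could pass with 4 libraries of day 14 against 2 of day 4. Adm did not reach the filter of 5 CPM in 4 libraries. No paired analysis was possible because the labels give no replicate numbers that pair libraries. Ak4 and Adm rest on the fewest counts.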
